A study of Mus musculus with 16 samples.

Results

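The step from Ly6D-negative to Ly6D-positive common lymphoid progenitors (CLP) of mouse bone marrow was described from 4 of the 16 arrays of the series, the 2 labelled wild-type Ly6D+ CLP and the 2 labelled wild-type Ly6D- CLP. These 4 arrays were chosen by their titles alone. The CLP came from wild-type C57Bl6 mice of 8 to 12 weeks that are labelled female, and were sorted straight into RNA extraction. Biotin-labelled cRNA was made from 4000 to 7000 cells an array. The labels call the arrays of each group biological replicates and do not say whether a replicate was 1 mouse or a pool, nor which surface markers other than Ly6D defined the gate. The study as a whole compared haematopoietic stem cells (HSC) of mitochondrial mutator and wild-type mice of different ages. Its HSC arrays are of young mice, of old mice, and of mid-aged mutator and mid-aged wild-type mice. Mid-aged is used here for an age between those of the young and the old mice. All of these HSC arrays enter the main fit, from which the standard errors and p-values come. Of the HSC arrays, the 3 young wild-type ones (9 to 12 weeks) serve below as a level for cells above the CLP in the hierarchy.

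CLP are marrow cells that give rise mainly to lymphocytes. Those without the surface protein Ly6D keep a broader potential, which includes T, natural killer and dendritic cells, while those that carry Ly6D are largely set toward B cells. Along that path the transcription factors E2A, Foxo1 and Ebf1 switch on the genes of the surrogate light chain and its signalling partners, and the Rag enzymes cut the immunoglobulin genes for rearrangement.

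The gene of the sorted protein and 2 genes of the early B lineage, Ebf1 and Rag1, served to check the sort label. Ly6d, the gene of the sorted protein, had a deposited intensity of 1758 and 1126 in the Ly6D+ arrays, of 54.7 and 23.0 in the Ly6D- arrays and of 14.4 to 19.6 in young HSC. Ebf1 lay at 1651 and 2051 in the Ly6D+ arrays against 115 and 52.6 in the Ly6D- arrays, and Rag1 at 3982 and 4264 against 253 and 263. All 3 were high in both Ly6D+ arrays and low in both Ly6D- arrays. Since Ly6D was the sorted marker, the difference in Ly6d checks the sort and is no result, though Ly6d stays in the 384 calls and 15 largest rises counted below. The changes of Ebf1 and Rag1 given below rest on these same values and are no separate evidence.

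The 4 arrays had like overall levels, with medians of 24.8 to 25.8, and correlated over the 14344 genes tested with r of 0.916 to 0.948 on the log2 scale. Ly6D+ replicate 1 correlated as closely with Ly6D- replicate 1 (r = 0.948) as with the other Ly6D+ array (r = 0.944). Ly6D+ replicate 2 stood apart in its ratio of 3' to 5' signal for beta-actin, a measure of how complete the labelled RNA was: its log2 ratio was 3.85, against 2.11 to 2.52 in the other 3 CLP arrays. The same ratio was 4.24 to 5.26 in the mid-aged HSC arrays and 2.20 to 2.61 in the old and young HSC arrays. Ly6D- replicate 2 stood apart in neutrophil transcripts, with an S100a8 intensity of 1371 against 16.1 to 75.6 in the others. Against the label, all 4 CLP arrays had Xist, the transcript of the inactive X chromosome, at 9.22 to 16.8 and the Y-linked Eif2s3y at 423 to 758, while the young HSC had 3507 to 8041 and 8.14 to 9.25. Both CLP groups carried this pattern, as did mid-aged wild-type HSC replicate 3 (Xist at 9.12 and Eif2s3y at 552). In bulk samples such as these, more cells of a type and more RNA of a gene per cell cannot be told apart.

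Between the groups, 384 of 14344 genes (2.68%) passed an adjusted p of 0.05 in limma's moderated test, fitted to all 16 arrays and adjusted by Benjamini and Hochberg. Of these, 214 (1.49%) were higher and 170 (1.19%) lower in Ly6D+ than in Ly6D- CLP. The changes are differences of mean log2(intensity + 16), given with the standard error of the fit. At least a 2-fold change was seen for 183 of the higher and 142 of the lower genes, and at least an 8-fold change for 14 and 3. Among the largest rises were those of genes of the surrogate light chain and of B-lineage transcription, and among the largest falls those of a mixed group with a prostaglandin receptor, a gut-homing receptor and a neutrophil protease. The median change over all genes was 0.01, and the median SD between the 2 arrays of a group was 0.21 in either group. A gene could pass the filter on dim values through 1 group alone: of the 214 higher genes, 26 had both Ly6D- arrays at or below the 40th percentile of their array, and of the 170 lower genes 18 had both Ly6D+ arrays there.

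**Figure D1:**
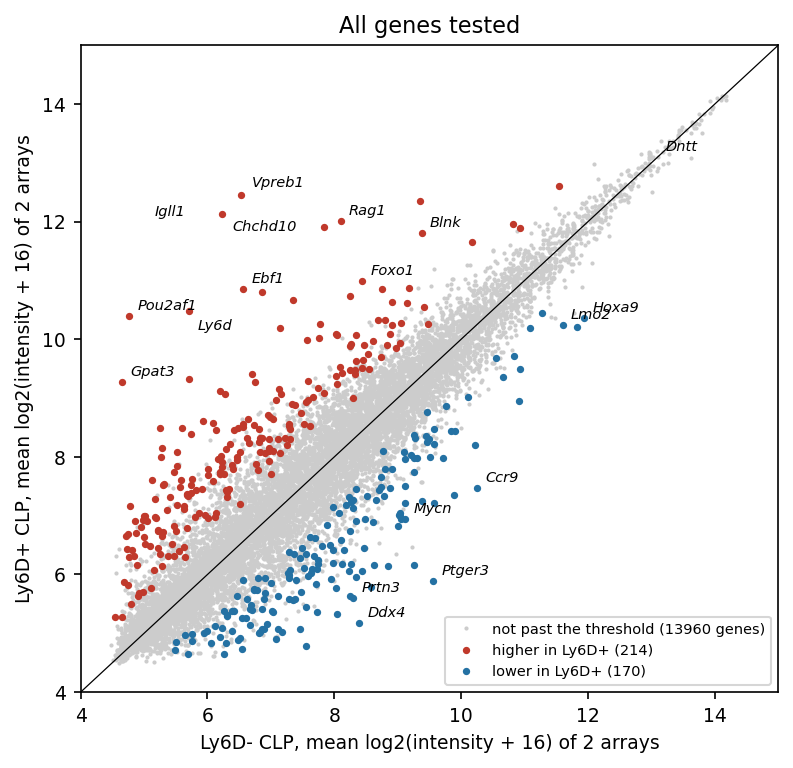
Mean log2(intensity + 16) of the 2 Ly6D- CLP arrays (x axis) against that of the 2 Ly6D+ CLP arrays (y axis) for the 14344 genes tested, with the line of equal level. Red points are the 214 genes higher and blue points the 170 genes lower in Ly6D+ CLP at an adjusted p under 0.05, and Vpreb1, Igll1 and Pou2af1 lie farthest above the line on this scale.

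The count of calls leaned on the other arrays of the fit and on single CLP arrays. With the 4 CLP arrays alone limma called 0 genes (1005 had an unadjusted p under 0.05, and the smallest adjusted p was 0.10), and leaving out 1 CLP array gave 307 calls without Ly6D+ replicate 2, 315 without Ly6D- replicate 2, 573 without Ly6D+ replicate 1 and 752 without Ly6D- replicate 1, among them 176, 186, 258 and 283 of the 384. Of the 15 largest rises 14 passed in each of those 4 fits, and of the 15 largest falls 10 did.

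The surrogate light chain genes Vpreb1 and Igll1 had the largest rises with the constant of 16 (with 1 in its place, Pou2af1 at 6.78 rose more than Igll1 at 6.23 and Vpreb1 at 6.19). This pair of invariant proteins stands in for the light chain on early B cells, so that a newly made heavy chain can be tested. Vpreb1, its V-like protein, had intensities of 6086 and 5117 in the Ly6D+ arrays, 48.6 and 117 in the Ly6D- arrays and 28.8 to 37.6 in young HSC. Igll1, the lambda 5 protein, had 5222 and 3841 against 63.9 and 53.8, with 35.1 to 44.1 in young HSC. Both genes were low in the Ly6D- arrays, if above young HSC, and among the brighter genes in both Ly6D+ arrays. The changes were 5.92 ± 0.38 (adjusted p = 1.53e-06) and 5.91 ± 0.28 (adjusted p = 8.82e-08). A second Igll1 probe set, dim on every CLP array, changed by 0.18, and the one used can also bind related sequences by its design suffix. Vpreb3, which assists assembly of the receptor inside the cell, was at 227 and 143 against 37.4 and 38.3, a rise of 1.87 ± 0.22 (adjusted p = 0.000322).

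In the RefSeq order of the tested genes, Igll1 and Vpreb1 are neighbours on chromosome 16, and Chchd10 and Vpreb3 on chromosome 10. Genes that were not tested were skipped in this order and may lie between them. Chchd10, which encodes a mitochondrial protein, rose by 4.07 ± 0.36 (adjusted p = 4.37e-05), from 294 and 153 to 4227 and 3479. The 250 bases upstream of the RefSeq start of these 4 genes are given here (GRCm38.p6, 5' to 3' on the gene's strand) because the genes rose as neighbours, with those of Blnk and Rag1, which also rose. Capitals mark matches on either strand to 3 motifs: the octamer ATTTGCAT, which Pou2af1 helps to read (ATGCAAAT is its reverse complement), the E-box CAGCTG of the E2A family, and a core bound by Ebf1, which reads TCCC, any 2 bases, then GGGA.
Igll1 promoter, chr16:16863986-16864235, minus strand: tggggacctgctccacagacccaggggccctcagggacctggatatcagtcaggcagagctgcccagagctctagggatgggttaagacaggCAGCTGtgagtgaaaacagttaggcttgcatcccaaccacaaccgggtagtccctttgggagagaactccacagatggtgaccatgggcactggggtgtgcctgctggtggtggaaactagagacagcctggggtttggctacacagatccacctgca
Vpreb1 promoter, chr16:16869256-16869505, minus strand: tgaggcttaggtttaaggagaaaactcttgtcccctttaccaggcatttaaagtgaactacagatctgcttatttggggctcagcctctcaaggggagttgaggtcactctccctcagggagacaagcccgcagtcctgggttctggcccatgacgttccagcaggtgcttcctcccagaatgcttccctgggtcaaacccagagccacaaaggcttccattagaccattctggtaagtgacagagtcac
Chchd10 promoter, chr10:75932880-75933129, plus strand: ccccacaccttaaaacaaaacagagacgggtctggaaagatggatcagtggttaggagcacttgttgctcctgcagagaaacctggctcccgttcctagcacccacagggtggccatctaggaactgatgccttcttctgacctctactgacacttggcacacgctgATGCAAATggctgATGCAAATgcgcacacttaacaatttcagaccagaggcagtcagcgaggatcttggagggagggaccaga
Vpreb3 promoter, chr10:75948050-75948299, plus strand: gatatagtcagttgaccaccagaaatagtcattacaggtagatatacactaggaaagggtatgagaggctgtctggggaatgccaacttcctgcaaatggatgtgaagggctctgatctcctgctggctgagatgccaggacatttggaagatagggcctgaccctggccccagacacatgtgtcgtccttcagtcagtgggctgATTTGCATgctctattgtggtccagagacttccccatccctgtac
Blnk promoter, chr19:40994222-40994471, minus strand: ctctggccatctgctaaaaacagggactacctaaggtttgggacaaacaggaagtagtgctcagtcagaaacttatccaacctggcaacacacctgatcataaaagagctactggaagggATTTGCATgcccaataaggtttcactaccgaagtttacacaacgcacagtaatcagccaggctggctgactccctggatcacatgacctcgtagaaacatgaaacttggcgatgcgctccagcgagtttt
Rag1 promoter, chr2:101649533-101649782, minus strand: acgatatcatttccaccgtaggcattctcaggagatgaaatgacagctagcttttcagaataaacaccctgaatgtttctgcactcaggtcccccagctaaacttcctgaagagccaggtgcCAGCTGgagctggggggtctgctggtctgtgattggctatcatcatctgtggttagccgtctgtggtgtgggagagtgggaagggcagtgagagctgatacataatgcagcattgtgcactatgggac

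Chchd10 held 2 octamers, 83 to 76 and 70 to 63 bases before its start, and Vpreb3 and Blnk held 1 each, 45 to 38 and 130 to 123 bases before. Igll1 and Rag1 held 1 E-box each, at 158 to 153 and 128 to 123 bases, and the Vpreb1 window held no match to any of the 3. Over all genes, the octamer stood in 6 of the 177 higher genes with a promoter in the table (3.39%: Abtb2, Blnk, Chchd10, Nrarp, Prkcb and Vpreb3) and in 1 of 142 lower genes (0.704%, Gcnt2), beside 1.45% of the 11535 genes tested that have one and 1.81% of all 27025 promoters. CAGCTG stood in 14.7% of higher and 19.0% of lower genes, beside 14.6% of those tested. The Ebf1 core stood in 1.13% and 1.41%, beside 1.16%. These are counts of letters in 1 window per gene and describe no binding.

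Gene lists are given below by the share of tested members that passed, to be read beside the 1.49% of all genes that rose and the 1.19% that fell (2.68% in all). A single called member in a list of this size is weak evidence about the list. Of the pre-B receptor and signalling genes, 9 of 26 tested members rose (34.6%) and 0 fell, with a median change of 0.40 beside 0.01 over all genes. Blnk, the adaptor that links the receptor to downstream enzymes, had 4283 and 2939.7 in the Ly6D+ arrays against 579 and 725. Blk, a Src-family kinase of B cells, had 408 and 347 against 39.1 and 51.5. Prkcb, the protein kinase C of the pathway, had 677 and 575 against 31.3 and 42.2. In all 3 the arrays of the groups lay far apart, and only Prkcb was already above the Ly6D- level in young HSC (81.2 to 118). The rises were 2.42 ± 0.23 for Blnk, 2.68 ± 0.16 for Blk and 3.61 ± 0.46 for Prkcb (adjusted p = 6.91e-05, 7.98e-07 and 0.000615).

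The receptor's signalling chains rose less and from different levels. Cd79b lay at 1020.0 and 887 against 258 and 329.9, a change of 1.65 ± 0.23 (adjusted p = 0.00171). Cd79a lay at 173 and 60.9 against 17.1 and 16.9, a change of 1.87 ± 0.30 (adjusted p = 0.00466) that was 2.53 with a constant of 1 and 1.09 with 64, both Ly6D- arrays being dim. Cd79b was thus well above its HSC level of 78.1 to 92.9 in both Ly6D- arrays, while Cd79a was at its HSC level (14.7 to 17.6) in both Ly6D- arrays and uneven between the Ly6D+ arrays. Dok3, an inhibitory adaptor, rose by 0.97 ± 0.23 (adjusted p = 0.0391), but not without Ly6D+ replicate 1 (0.75, adjusted p = 0.160) or without Ly6D- replicate 2 (0.75, adjusted p = 0.219). The probe set used for the heavy chain gene Ighm stayed at 106 to 148 on the 4 arrays. Some other Ighm probe sets were far brighter on all 4, at 3787 to 5582 and 4734 to 6547. They changed by 0.05 and 0.10 without passing. The kinases Syk and Btk and the phospholipase Plcg2 changed by 0.08, 0.41 and 0.38 without passing the test.

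**Figure D2:**
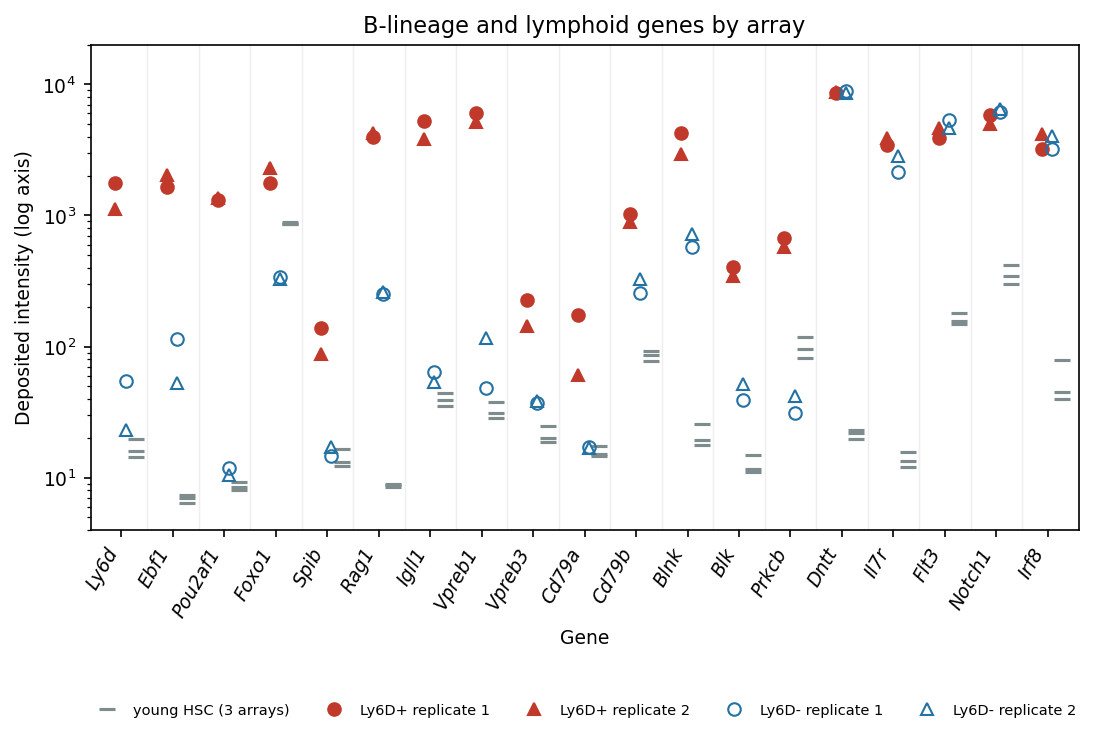
Deposited intensity (y axis, log scale) of 19 lymphoid genes (x axis) on each Ly6D+ CLP array (filled red), each Ly6D- CLP array (open blue) and each of the 3 young HSC arrays (grey bars). Red and blue symbols are far apart for the genes from Ly6d to Prkcb and overlap or nearly touch for Dntt, Flt3, Notch1 and Irf8.

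Of the B-lineage and lymphoid transcription factors, 5 of 30 tested rose (16.7%) and 0 fell, with a median change of 0.47. Groups of arrays did not overlap upward in 17 and downward in 7 of the 30, beside 18.9% and 16.3% of all genes tested (35.2% in either direction). Pou2af1, a coactivator of octamer factors in B cells, had 1303 and 1363 in the Ly6D+ arrays against 11.9 and 10.4, and 8.12 to 9.23 in young HSC. It was at the bottom of the range in every array but the Ly6D+ ones, and its change was 5.64 ± 0.15 (adjusted p = 1.18e-10). The size of a change from so low a level depends on the constant added before the log: it was 6.78 with 1 and 4.22 with 64.

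Ebf1, the factor that specifies the B lineage, rose by 4.29 ± 0.23 (adjusted p = 3.95e-07), and its 4 probe sets changed by 1.36 to 4.45. Its Ly6D- intensities of 115 and 52.6 were above the 6.40 to 7.42 of young HSC, and the higher of them was on the array with the higher Ly6d (54.7 against 23.0). Foxo1, which activates the Rag genes and Il7r, lay at 1774 and 2308 against 338 and 326. Its level in young HSC (863 to 891) lay between those of the CLP groups. The rise from Ly6D- to Ly6D+ CLP was 2.55 ± 0.34 (adjusted p = 0.00116), and of its other 3 probe sets 2 changed by 2.08 and 1.79 and the third, dim on all arrays, by -0.03.

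Spib, an Ets factor of B and plasmacytoid dendritic cells, lay at 139 and 88.4 against 14.8 and 17.1, a rise of 2.0 ± 0.18 (adjusted p = 4.37e-05) that was 2.73 with a constant of 1 and 1.14 with 64. Irf4, needed for light chain rearrangement, rose by 1.51 ± 0.35 (adjusted p = 0.0391), with 148 and 35.7 against 16.6 and 15.9 (2.10 with a constant of 1 and 0.86 with 64). Most of that mean came from 1 Ly6D+ array, and the call was lost without Ly6D- replicate 1 (1.53, adjusted p = 0.0772) or Ly6D- replicate 2 (1.5, adjusted p = 0.132).

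Pax5, which locks in B-cell identity, had the same uneven pattern as Irf4, with 128 and 41.9 in the Ly6D+ arrays against 23.5 and 24.0. The change of 1.20 ± 0.32 did not pass (adjusted p = 0.0688). It passed without Ly6D+ replicate 2, the array with the high actin ratio (1.86, adjusted p = 0.00106). Id3, an inhibitor of E proteins, was close to the threshold as well, at 46.3 and 56.2 against 22.4 and 31.6 (0.65 ± 0.17, adjusted p = 0.0597).

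Of the other 25 factors tested, none of which passed, several were well expressed in both groups. Irf8 had 3202 and 4155 in the Ly6D+ arrays and 3197 and 4031 in the Ly6D- arrays (0.02 ± 0.48, adjusted p = 0.998). Ikzf1, the gene of Ikaros, was at 3417 to 3944 on all 4 arrays, and Tcf3, the gene of E2A, changed by 0.25 ± 0.29 (adjusted p = 0.838). All 3 were above their young HSC levels of 40.2 to 79.4, 1369 to 1686 and 314 to 342 in both CLP groups. In others the arrays of the groups did not overlap, though the changes missed the threshold. These were Ets1 (0.98 ± 0.36, adjusted p = 0.232), Runx1 (0.68 ± 0.38, adjusted p = 0.516), Erg (0.62 ± 0.26, adjusted p = 0.323) and Mef2c (-0.64 ± 0.19, adjusted p = 0.106), among others.

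Of 13 recombination and end-joining genes, 1 rose (7.69%) and 0 fell. It was Rag1, which with Rag2 forms the enzyme that cuts antigen receptor genes. Its rise of 3.92 ± 0.13 had an adjusted p of 1.89e-09, and it started from a Ly6D- level well above the 8.53 to 8.95 of young HSC. Rag2 had 390.4 and 361 against 341 and 137, so that only Ly6D- replicate 2 was low, and its change of 0.74 ± 0.32 did not pass (adjusted p = 0.341). Without Ly6D- replicate 1 it did (1.36, adjusted p = 0.0153). Dntt, the polymerase that adds untemplated bases at the joints, was level: 8648 and 8783 against 8869 and 8652, with 19.9 to 23.1 in young HSC (-0.01 ± 0.29, adjusted p = 0.999). Xrcc6, the Ku70 end-joining gene, changed by 0.31 and did not pass, while a second, dimmer probe set of it lay at 48.5 and 89.5 against 15 and 13.2 and rose by 1.46 (adjusted p = 0.00126 over all probe sets). Hmgb2, a DNA-bending protein that assists Rag cleavage, changed by 0.36 and did not pass.

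Among the genes of interleukin 7 and Flt3 signalling, which carry survival and growth signals in CLP, 1 of 21 tested rose (4.76%) and 0 fell (median 0.08). Il7r had 3417 and 3929.8 in the Ly6D+ arrays against 2162 and 2851, and Flt3 had 3929 and 4687 against 5381 and 4645. The Il7r arrays did not overlap, but neither change passed the test (0.56 ± 0.22, adjusted p = 0.279, and -0.22 ± 0.26, adjusted p = 0.845). The gene that rose was Ccnd3, cyclin D3, on which dividing pre-B cells depend, at 1863 and 1831 against 409.8 and 423 (2.11 ± 0.40, adjusted p = 0.0150). Its call was lost without Ly6D+ replicate 2 (2.12, adjusted p = 0.0576) and without Ly6D- replicate 2 (2.13, adjusted p = 0.0554), although the change itself held its size. With the mean of its 3 probe sets the change was 0.74 (adjusted p = 0.0959), because the 2 dimmer ones changed by -0.18 and 0.29.

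Of 25 surface and homing genes, 3 rose and 3 fell (12.0% each). Bst1, the stromal antigen also known as CD157 and BP-3, lay at 73.3 and 66.9 against 12.0 and 9.37 (1.69 ± 0.14, adjusted p = 2.23e-05). With both Ly6D- arrays dim, that change was 2.61 with a constant of 1 and 0.84 with 64. Ccr7, a receptor for lymph node chemokines, lay at 121 and 139 against 32.1 and 27.8 (1.67 ± 0.14, adjusted p = 3.71e-05, and 1.04 with a constant of 64). Il10ra, the interleukin 10 receptor, lay at 292 and 271 against 70.5 and 60.9 (1.87 ± 0.21, adjusted p = 0.000199). For each of them the 2 arrays of a group were close, and young HSC were at or below the Ly6D- level.

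Of the genes that fell, Ccr9 and Itgb7 serve homing to the thymus and gut. Ccr9, the receptor for the thymic and intestinal chemokine Ccl25, was at 86.2 and 289.9 in the Ly6D+ arrays against 1051 and 1366, and at 7.34 to 8.37 in young HSC. The Ly6D- arrays were highest, and the Ly6D+ arrays lay between them and HSC. The fall was -2.78 ± 0.34 (adjusted p = 0.000473), and 2 dimmer probe sets changed by -0.44 and -1.04. Itgb7, the beta 7 integrin of gut homing, was at 80.7 and 79.5 against 195 and 342 (-1.52 ± 0.28, adjusted p = 0.0122), and lost its call without Ly6D+ replicate 2 (-1.51, adjusted p = 0.0525) or Ly6D- replicate 2 (-1.13, adjusted p = 0.0850). Cd48, a SLAM-family protein, was at 860.0 and 746 against 1741 and 1275 (-0.88 ± 0.19, adjusted p = 0.0242), a call lost without Ly6D+ replicate 2 (-0.78, adjusted p = 0.124) or Ly6D- replicate 1 (-0.66, adjusted p = 0.102).

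Notch and T-lineage genes otherwise hardly separated the groups, with 1 of 19 higher (5.26%), 0 lower and a median of -0.13. Notch1, the receptor that directs progenitors to the T lineage, was at 5787 and 4951 against 6114 and 6449.5, and changed by -0.23 ± 0.27 (adjusted p = 0.850). Gata3, a T-lineage factor, was at 15.9 to 21.2 on all 4 arrays. The member that rose was Nrarp, a target and inhibitor of Notch, at 357 and 229 against 56.6 and 124 (1.59 ± 0.33, adjusted p = 0.0219). This call did not hold without Ly6D+ replicate 1 (1.28, adjusted p = 0.101) or without Ly6D- replicate 1 (1.11, adjusted p = 0.0967), and a second probe set changed by -0.23.

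**Figure D3:**
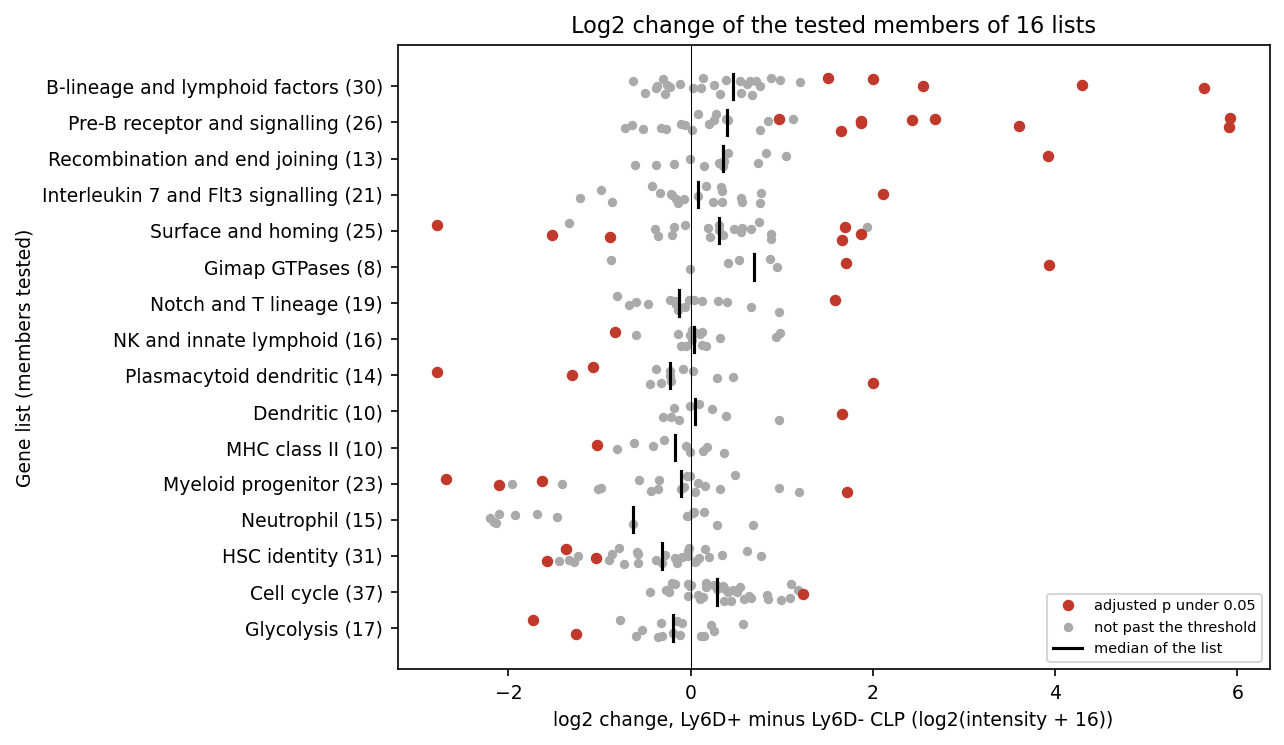
Log2 change from Ly6D- to Ly6D+ CLP (x axis, difference of mean log2(intensity + 16)) of each tested member of 16 gene lists (y axis, number tested in brackets). Red points passed an adjusted p of 0.05, grey points did not, and the black bar is the median of the list: red points stand mostly to the right in the lists of B-lineage factors and of the pre-B receptor and to the left in the lists of HSC identity, plasmacytoid dendritic and myeloid progenitor genes.

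The 15 largest falls were led by genes with no common function. Ptger3, a receptor for prostaglandin E2, was at 103 and 13.6 in the Ly6D+ arrays against 795 and 689 (-3.67 ± 0.44, adjusted p = 0.000427). Ddx4, an RNA helicase known from germ cells, was at 11.6 and 31.1 against 375 and 272 (-3.22 ± 0.30, adjusted p = 5.27e-05). Wfdc17, a small secreted protein gene, was at 78.5 and 38.8 against 624 and 570.3 (-3.09 ± 0.38, adjusted p = 0.000448). Ptger3 was as high in young HSC (754 to 828) as in the Ly6D- arrays, whereas Ddx4 and Wfdc17 were low in HSC (26.3 to 35.5 and 49.4 to 73.5) and high in the Ly6D- arrays alone.

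Other large falls ran on from HSC. Rab38, a small GTPase of organelle transport, was at 3680.2 to 4624 in young HSC, 224 and 590.1 in the Ly6D- arrays and 35.5 and 42.8 in the Ly6D+ arrays (-2.79 ± 0.32, adjusted p = 0.000264). Hsd3b7, an enzyme of bile acid and oxysterol metabolism, was at 1455 to 1683, then 239.8 and 254, then 26.7 and 22.1 (-2.70 ± 0.29, adjusted p = 0.000175). Cpq, a carboxypeptidase, was at 943 to 1126, then 378 and 249.8, then 36.4 and 58.4 (-2.37 ± 0.30, adjusted p = 0.000687). In all 3 the order from high to low was young HSC, Ly6D- and Ly6D+, with no overlap.

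Of the remaining genes among the 15 largest falls, Prtn3, Dhrs7 and Ppm1l passed in each fit without 1 CLP array, and the others did not. Ppm1l lay at 41.9 and 61.6 against 174 and 612, uneven between the Ly6D- arrays. Its other probe sets changed by 0.44 and -0.39 without passing. Itm2a (-2.77, and -1.68 with a constant of 64) was lost without Ly6D+ replicate 1 (-2.58, adjusted p = 0.0519) and without Ly6D- replicate 2 (-1.90, adjusted p = 0.0880). Oasl2 (-2.70) was lost without Ly6D+ replicate 2 (-1.61, adjusted p = 0.0791) and without Ly6D- replicate 2 (-2.66, adjusted p = 0.0771). Slc35d3 (-2.53) was lost without either replicate 1 (-1.63, adjusted p = 0.0662 for Ly6D+, and -2.34, adjusted p = 0.0523 for Ly6D-). These genes differed by far more between the 2 arrays of a group than Hsd3b7 did. The last of them were Vmn2r84 (-2.39, and -1.51 with a constant of 64), lost without Ly6D+ replicate 2 (-2.10, adjusted p = 0.0775), and Gcnt2, lost without Ly6D+ replicate 1 (-1.85, adjusted p = 0.0579).

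**Figure D4:**
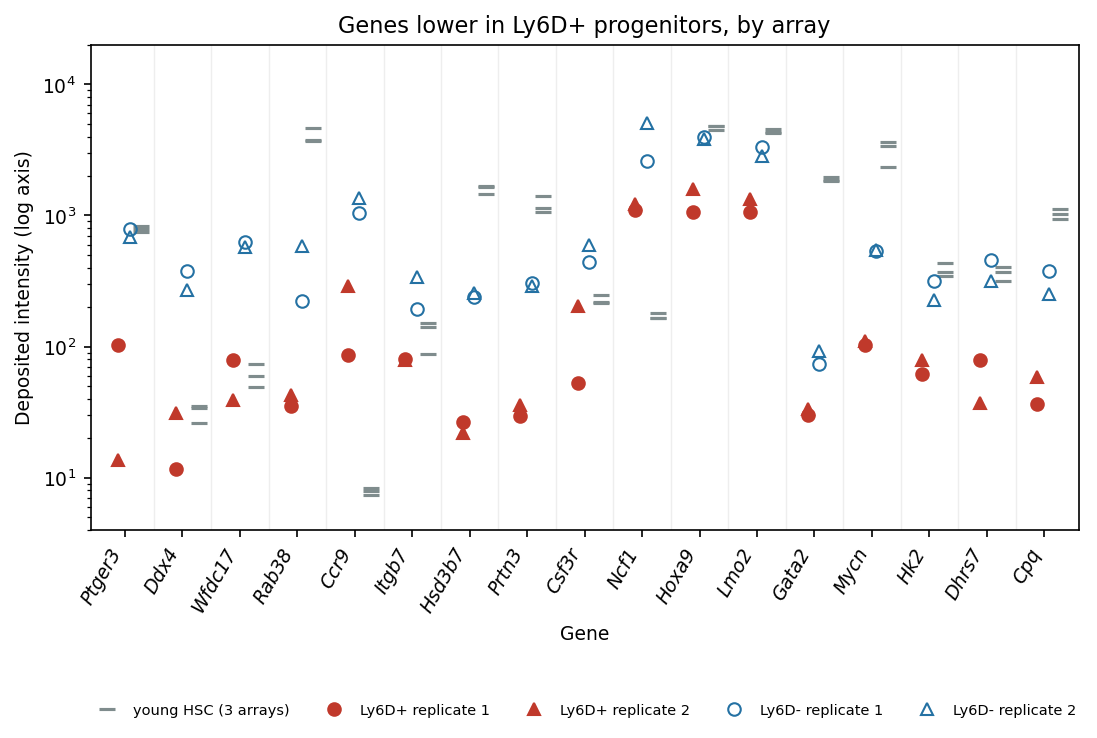
Deposited intensity (y axis, log scale) of 17 genes that were lower in Ly6D+ CLP (x axis) on each Ly6D+ array (filled red), each Ly6D- array (open blue) and each young HSC array (grey bars). Grey bars lie above the CLP symbols for Rab38, Hsd3b7, Prtn3, Hoxa9, Lmo2, Gata2, Mycn, Hk2 and Cpq, and below them for Ccr9 and Ncf1.

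Of 31 genes of HSC identity, 3 fell (9.68%) and 0 rose, with a median of -0.32. Hoxa9, a homeobox factor of stem and early progenitor cells, was at 1055 and 1605 in the Ly6D+ arrays against 3978 and 3829, close to the 4509 to 4850.3 of young HSC. Both Ly6D- arrays were thus near the HSC level and both Ly6D+ arrays below it (-1.57 ± 0.27, adjusted p = 0.00802). Lmo2, a bridging factor of stem cell and erythroid complexes, had the same order, with 1065 and 1335 against 3342 and 2865 and 4276 to 4529 in HSC. Its fall of -1.36 ± 0.31 passed in the fit of 16 arrays (adjusted p = 0.0362), but its adjusted p was 0.0737 to 0.124 and its change -1.52 to -1.20 without any 1 of the CLP arrays.

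Gata2 was already low in the Ly6D- arrays, at 73.3 and 92.0 against 1836 to 1966 in young HSC, and lower in the Ly6D+ arrays, at 30.3 and 33.6. That last step of -1.03 ± 0.23 passed (adjusted p = 0.0288, and -0.61 with a constant of 64), but not without Ly6D+ replicate 1 (-0.98, adjusted p = 0.0835), Ly6D+ replicate 2 (-1.08, adjusted p = 0.0822) or Ly6D- replicate 2 (-0.90, adjusted p = 0.150). A second Gata2 probe set lay at 36.5 and 75.2 against 78.7 and 45.9, so that the groups overlapped. It changed by -0.15 (adjusted p = 0.936 in limma over all probe sets). Cd34, a surface protein of progenitors, had 1037 and 1826 against 3818 and 3207 and missed the threshold (-1.34 ± 0.36, adjusted p = 0.0716). Mycn, a Myc-family factor, was at 103 and 111 against 535 and 543, and at 2337 to 3636 in young HSC. Its change of -2.17 ± 0.41 (adjusted p = 0.0131) was as large without Ly6D- replicate 2, though the adjusted p was then 0.0544, and 2 dimmer probe sets changed by -0.03 and 0.12.

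Of 23 myeloid progenitor genes, 3 fell (13.0%) and 1 rose (4.35%), with a median of -0.11. Prtn3, the granule protease proteinase 3, was at 29.7 and 35.7 against 303 and 292, with 1063 to 1397 in young HSC (-2.69 ± 0.38, adjusted p = 0.00173). Csf3r, the receptor for G-CSF, was at 52.5 and 204 against 442 and 594 (-2.11 ± 0.46, adjusted p = 0.0293). Ncf1, a subunit of the phagocyte oxidase, was at 1102 and 1228 against 2591 and 5090.2 (-1.63 ± 0.26, adjusted p = 0.00466). Prtn3 was alike in both Ly6D- arrays, while Ncf1 was highest in Ly6D- replicate 2, the array with neutrophil transcripts. Without that array the changes were -2.72 for Prtn3 and -1.14 for Ncf1, both past the threshold, and -1.90 for Csf3r, which was not (adjusted p = 0.141). Csf3r was also lost without Ly6D+ replicate 1 (-1.27, adjusted p = 0.127). The granule genes Ctsg and Mpo were lower by 1.96 and 1.01 on average without passing (adjusted p = 0.0887 and 0.823). The member that rose, Ly86, encodes MD-1, which pairs with a Toll-like receptor of B cells and myeloid cells, and was at 1428 and 1729 against 500.3 and 433 (1.72 ± 0.19, adjusted p = 0.000218).

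Neutrophil transcripts marked 1 array and not the group. By definition, all but 40% of the probe sets of an array lie above its 40th percentile. Of the 17 measured genes of the neutrophil list, 10 and 6 were above the 40th percentile in the Ly6D+ arrays, 7 in Ly6D- replicate 1 and 13 in Ly6D- replicate 2. Their mean log2 level was 5.52, 5.47, 5.42 and 7.12 in the same order, beside 6.27 to 7.49 in young HSC. Ngp, a granule protein of developing neutrophils, had 45.4, 41.6 and 41.5 on the first 3 arrays and 1121 on the last. The cathelicidin gene Camp had 23.2, 34.2, 33.8 and 821. S100a9, the partner of S100a8, had 13.1, 16, 14.8 and 565. Ly6D- replicate 2 was the outlying array for each of these and for Ltf, Lcn2, Chil3 and Mmp9, whereas Cxcr2, Mmp8 and Fcnb of the same list were low on all 4. Of the 15 list members tested limma called 0 (0 had an unadjusted p under 0.05), with a median of -0.63. The part of these transcripts in other differences was not tested beyond the fit without that array.

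**Figure D5:**
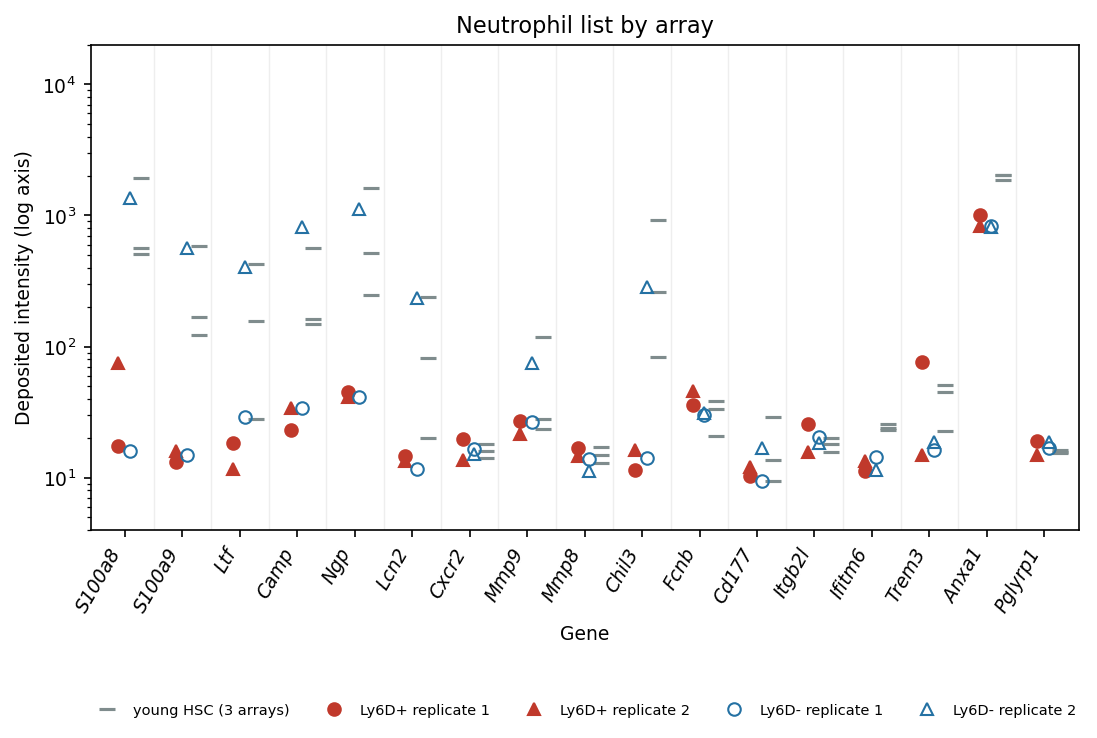
Deposited intensity (y axis, log scale) of the 17 measured genes of the neutrophil list (x axis) on each Ly6D+ array (filled red), each Ly6D- array (open blue) and each young HSC array (grey bars). The open blue triangle, Ly6D- replicate 2, stands above the other 3 CLP arrays for S100a8, S100a9, Ltf, Camp, Ngp, Lcn2, Mmp9 and Chil3 and lies within or near their range for the rest.

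Other cell types that a marrow sort could hold were also listed. Of 14 plasmacytoid dendritic genes 4 passed (28.6%): 3 fell (Ccr9, Clec10a at -1.30, or -0.71 with a constant of 64, and Tlr7 at -1.07) and 1 rose (Spib). Their defining factor Tcf4 and surface gene Siglech did not pass. Other probe sets of Tlr7, uneven within both groups, changed by 0.11 and 0.32 without passing. Clec10a was lost without Ly6D- replicate 1 (adjusted p = 0.08) and without either replicate 2 (0.202 for Ly6D+ and 0.114 for Ly6D-), and Tlr7 without either replicate 2 (0.265 and 0.207). Of 11 mature B genes 0 rose and 1 fell (9.09%), Fcmr at -0.64 (-0.28 with a constant of 64), a call lost without either replicate 2 (adjusted p = 0.159 and 0.155), and Ms4a1, the gene of CD20, was at 10.7 to 21.0 on the 4 arrays. Limma called 0 of 14 macrophage, 16 erythroid, 13 megakaryocyte and 12 stromal genes, where 1, 3, 1 and 0 had an unadjusted p under 0.05. A test between groups does not show transcripts carried by 1 array. The mean log2 level of the macrophage list was 5.34 and 5.58 in the Ly6D+ arrays and 5.47 and 5.90 in the Ly6D- arrays. Ly6D- replicate 2 was thus highest, as it was for the erythroid list (6.68 against 6.39 to 6.57), but not for the megakaryocyte and stromal lists. Of 8 mast cell genes 1 fell (12.5%), Gata2, and of 10 dendritic cell genes 1 rose (10%), Ccr7. Of 16 natural killer and innate lymphoid genes 1 fell (6.25%), Nfil3 at -0.82 (-0.49 with a constant of 64), whose call was lost without either Ly6D+ array or Ly6D- replicate 2 (adjusted p = 0.102 to 0.224).

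Of 10 MHC class II genes 1 fell (10%), the invariant chain Cd74, which had 119 and 112 against 235 and 270.2 (-1.03 ± 0.21, adjusted p = 0.0196), and which lost its call without either replicate 2 (adjusted p = 0.0838 and 0.0999). Of 10 plasma cell genes 2 rose (20.0%), Irf4 and Mzb1, an endoplasmic reticulum protein of B-lineage cells, while Prdm1 and Jchain were at 10.4 to 20.8 on all 4 arrays. Mzb1 lay at 1872 and 1372 in the Ly6D+ arrays against 226 and 95.1, a clear step without overlap (3.31 ± 0.30, adjusted p = 4.37e-05).

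Of 37 cell cycle genes 1 rose (2.70%, near the 1.49% of all genes) and 0 fell, with a median of 0.29. Mki67, a marker of dividing cells, had 3895 and 5157 against 3095 and 2874 and did not pass (0.58 ± 0.65, adjusted p = 0.833). The member that rose was E2f2, an E2F factor, at 289.6 and 426 against 168 and 116 (1.23 ± 0.25, adjusted p = 0.0192), which lost its call without either replicate 2 (adjusted p = 0.123 and 0.121). Of 18 cell cycle regulators 2 rose (11.1%), Ccnd3 and Cdkn1a. Cdkn1a, the CDK inhibitor p21, has a second, dimmer probe set at 230 and 221 in the Ly6D+ arrays against 58.2 and 58.3. That one rose by 1.70 ± 0.21 (adjusted p = 0.000717 in limma over all probe sets). The probe set used had 929 and 1074 against 136 and 219.7. Its change of 2.42 ± 0.55 passed with 16 arrays (adjusted p = 0.0333) and in no fit without 1 CLP array (2.11 to 2.74, adjusted p = 0.0640 to 0.130).

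Of 17 glycolysis genes 2 fell (11.8%). Hk2, hexokinase 2, was at 61.5 and 79.0 against 319 and 228 and at 347 to 433 in young HSC (-1.73 ± 0.29, adjusted p = 0.00669). Ldhb, a lactate dehydrogenase subunit, fell by 1.26 ± 0.30 (adjusted p = 0.0445), a call lost without Ly6D+ replicate 1 (adjusted p = 0.201) or Ly6D- replicate 2 (adjusted p = 0.279). The other 15 members did not pass, and the list's median was -0.20. Of 25 genes of ribosome biogenesis and Myc 2 passed (8.0%): 1 rose (Rrp12, 1.65, lost without every CLP array but Ly6D+ replicate 1, adjusted p = 0.0652 to 0.165) and 1 fell (Mycn). Of 13 Bcl2 family genes 1 rose (7.69%), the death effector Bok (1.19), which was lost without either replicate 2 (adjusted p = 0.105 and 0.101). Limma called 0 of 23 immediate early and 0 of 23 chromatin genes, where 1 and 6 had an unadjusted p under 0.05.

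Of the 8 Gimap genes, a cluster of lymphocyte GTPases, 2 rose (25.0%, median 0.70). Gimap7 had 732 and 504 against 176 and 176 (1.70 ± 0.20, adjusted p = 0.000305). Gimap4 had 1673 and 1855 against 266 and 32.2, and rose by 3.93 ± 0.79 (adjusted p = 0.0193). On the probe sets used, the Ly6D- arrays were far apart from each other for Gimap4 and level for Gimap7. A second Gimap4 probe set lay at 1105 and 1273 against 176 and 86.5 (3.10 ± 0.30, adjusted p = 0.000145 in limma over all probe sets). A second Gimap7 probe set, uneven between the Ly6D+ arrays at 73.3 and 10.4, changed by 0.82 without passing. The Gimap4 call was lost without Ly6D+ replicate 2 (3.86, adjusted p = 0.0802) and, with a smaller change, without Ly6D- replicate 2 (2.65, adjusted p = 0.126).

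Several of the largest rises lay outside all lists. Gpat3, an enzyme that starts triglyceride and phospholipid synthesis, had 497 and 732 in the Ly6D+ arrays against 9.29 and 8.99, and 10.9 to 11.9 in young HSC (4.62 ± 0.28, adjusted p = 1.15e-06). Like Pou2af1 it was at the bottom of the range in the Ly6D- arrays, and its change was 5.90 with a constant of 1 and 3.19 with 64. Myl4, a myosin light chain, had 1132 and 1176 against 93.0 and 167 (3.05 ± 0.25, adjusted p = 1.97e-05). Gpr25, a G protein-coupled receptor, had 459 and 642 against 73.0 and 43.9 (2.94 ± 0.30, adjusted p = 0.000117). Both were near background in young HSC, at 17.6 to 23.4 and 15 to 18.8.

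Pde2a, a phosphodiesterase of cyclic nucleotides, and Pgr, the progesterone receptor, were different in that young HSC had them too. Pde2a had 5708 and 4763 against 449.9 and 893, with 755 to 830.0 in HSC (3.01 ± 0.31, adjusted p = 0.000122), and its 3 probe sets changed by 0.43 to 3.42. Pgr had 261 and 457 against 36.6 and 11.9, with 147 to 263 in HSC (3.24 ± 0.35, adjusted p = 0.000175). Pgr was thus lowest in the Ly6D- arrays. Of the 214 higher genes 27 (12.6%) and of the 170 lower genes 12 (7.06%) had all 3 young HSC arrays at or below the 40th percentile of their array, beside 6.56% of all genes tested.

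Among the 14317 tested genes with a place in the RefSeq order, 19 neighbouring pairs were both called, 11 of them both higher, 5 both lower and 3 in opposite directions. This stands beside 2.68% of all genes called (1.49% higher and 1.19% lower). The number of such pairs under calls scattered over the genome was not computed, so the count is no evidence that calls cluster. Ly6d itself was next to Lynx1, another gene of its family on chromosome 15, which lay at 436 and 308 against 64.1 and 41.4 (2.50 ± 0.25, adjusted p = 9.09e-05). Blk was next to Fam167a (1.45), and Pik3r6 (2.48) was next to Pik3r5 (1.07, lost without any 1 CLP array, adjusted p = 0.0535 to 0.133), both regulatory subunits of the phosphoinositide 3-kinase gamma. Among the falls, Ccr9 was next to Lztfl1 (-1.60), which was lost without Ly6D+ replicate 2 (-1.24, adjusted p = 0.113) or Ly6D- replicate 1 (-1.31, adjusted p = 0.0667). The array does not tell transcripts of different strands or read-through transcripts apart beyond the design of each probe set.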

How the data were processed

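The 16 samples were single-colour Affymetrix-type arrays of sorted mouse marrow cells. The authors deposited 1 intensity per probe set and array on a linear scale. How these values were summarised and normalised is not given in the sources used here. Of the 45101 probe sets, 34958 have 1 gene symbol in the GEO platform annotation, 932 several and 9211 none. Symbols were updated through Entrez numbers to RefSeq.

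Values were taken as log2(intensity + 16). Each of 18194 genes was read from its probe set of highest mean, and kept if above the 40th percentile of the array on at least 2 of 16 arrays, which left 14344. limma 3.58.1 (R 4.3.3; lmFit, eBayes) was fitted to 16 arrays as 6 group means, since 4 CLP arrays leave little to estimate the spread from. The p-values were adjusted by Benjamini and Hochberg over all genes. The script was tested on simulated data. An array has no sequencing depth. The number of arrays limits the precision, and no detection call was used.

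Genes named in the text are the 15 largest changes in each direction past the threshold with arrays that do not overlap, up to 5 called members of each of 29 lists, and fixed lymphoid genes. Neighbours, genes quoted from list counts and those in the closing section were picked after their values were seen. Of 567 listed symbols 522 were matched and 493 tested. The others are not analysed here. The members and lists were chosen with earlier results of these data known. Promoters are from a RefSeq table (GRCm38.p6). Alternatives covered normalisation, filter, constant, probe set rule, arrays, variance model, replicate block and each CLP array left out. It is not known whether equal replicate numbers pair the arrays. The deviations of same-numbered arrays from their group means correlated with r = -0.000814, which cannot decide this with 2 arrays a group.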

Additional observations from a re-analysis of the deposited data

How the results depend on the processing

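Of the 17 alternatives, 4 moved the count of 384 calls by more than 1.5 times. The 4 CLP arrays alone gave 0 calls (1005 at an unadjusted p under 0.05), the fit without the 6 mid-aged arrays gave 653, and limma's array weights gave 105, all among the 384. Leaving out each CLP array in turn gave 307 to 752, the latter without Ly6D- replicate 1; a group left with 1 array is then assumed to vary like the others. The cause of these shifts was not tested beyond the fewer arrays used. The remaining alternatives gave 335 to 496. When a gene's probe sets were averaged, 4 of the 384 changed sign and 250 remained called; in no other alternative did a called gene change sign. The replicate block gave 496 calls, 376 of them shared, and lost no named call but added Pax5 (adjusted p = 0.0294) and Id3 (adjusted p = 0.0366). Since it is not known whether the numbers pair the arrays, the block is not used for the calls in the text. Of the 65 named genes that passed, 39 passed without each CLP array in turn, and 36 in every alternative except the 4 arrays alone. For the 15 largest rises the unadjusted p with 4 arrays was 6.98e-06 to 0.0127, and their standard errors were 0.13 to 0.79 with 16 arrays and 0.19 to 0.92 with 4. Arrays of HSC, where many lymphoid genes are near background, thus share in the spread used. Dim values limit the size of changes such as that of Pou2af1, and signal over background was not available as a call.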

Other observations

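Some receptor genes that are neighbours in the order of tested genes were called in the CLP comparison. They were picked after their values were seen and stand for no family. Il1r1, the signalling receptor of interleukin 1, was at 224 and 248 in the Ly6D+ arrays against 836 and 809 in the Ly6D- arrays (-1.73 ± 0.35, adjusted p = 0.0192 in limma). The call held without Ly6D- replicate 1 but not without Ly6D+ replicate 1, Ly6D+ replicate 2 or Ly6D- replicate 2 (-1.80 to -1.67, adjusted p = 0.0589 to 0.0688). Its neighbour on chromosome 1, the decoy receptor Il1r2, was at 151 and 99.8 against 28.8 and 38.6 (1.49 ± 0.25, adjusted p = 0.00551). Il1r1 was thus lower and Il1r2 higher in Ly6D+ CLP, with no overlap of arrays in either. Il17re, a receptor chain for interleukin 17C, was at 390.2 and 197 against 944 and 1466 (-2.02 ± 0.36, adjusted p = 0.00955), a call lost without either replicate 2 (-1.55 and -1.71, adjusted p = 0.0721 and 0.0685). Il17rc, a receptor chain for interleukin 17A and 17F, next to it on chromosome 6, was at 40 and 50.9 against 132 and 149 (-1.35 ± 0.18, adjusted p = 0.00128).

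Of 22 interferon response genes 2 fell (9.09%), Oasl2 and Oas2 (-1.54), both lost without Ly6D- replicate 2 among others (adjusted p = 0.0771 and 0.193). Ifi209 and Ifi213, genes of the interferon-inducible p200 family and neighbours in the order of tested genes, went the other way. Ifi209 was at 1768 and 1629.9 against 257 and 325 (2.49 ± 0.20, adjusted p = 1.82e-05), and Ifi213 at 251 and 447 against 28.0 and 95.4 (2.33 ± 0.42, adjusted p = 0.00958), which was lost without Ly6D+ replicate 2 (1.93, adjusted p = 0.0721). St6gal1, the sialyltransferase that makes the CD22 ligand, was at 967 and 1182 against 291 and 205 (2.06 ± 0.33, adjusted p = 0.00466).

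In a fit over all probe sets, 341 of the 26030 tested with 1 symbol were higher and 282 lower. Of the 5267 tested with no symbol in the annotation, 53 were higher and 37 lower, which is no larger a share. The one with the largest rise had 364 and 645 in the Ly6D+ arrays against 13.2 and 31.1 (3.76 ± 0.29), and the one with the largest fall had 16.2 and 22.1 against 311 and 509 (-3.56 ± 0.73). Some genes differed more within a group than between groups: Melk had 302 and 11.6 on the Ly6D- arrays and 247 and 596 on the Ly6D+ arrays, and Tab3 had 378 and 11.7, then 215 and 376.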
